A study of Mus musculus with 24 samples.

Results

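Gastrocnemius muscle of mice lacking Notch2 in muscle fibres was compared with wild-type muscle after both had been unloaded, using 8 of the 24 libraries of the series. The 4 unloaded wild-type libraries came from C57BL/6 mice of genotype Notch2f/f, in which both Notch2 alleles are floxed and no Cre is present. The 4 unloaded Notch2-mKO libraries came from mice of genotype Mlc1fCre/+;Notch2f/f, which carry the same floxed alleles together with 1 copy of Cre in the Mlc1f locus. That locus is the myosin light chain gene Myl1, so recombination is directed to skeletal muscle fibres, and satellite cells, vessels, nerves and leukocytes of the same muscle are not targeted. All 8 muscles were collected after 7 days of hindlimb suspension, a standard model of disuse wasting. The 16 other libraries are from control muscle and from muscle taken 14 days after streptozotocin (150 mg per kg), again 4 per genotype. They serve for comparison, and they share the scaling, the filter and the estimate of dispersion with the 8. The labels give no ages or sexes and do not state that the libraries of a group came from separate animals, so p-values measure only the spread between these samples, which may in part be technical.

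Notch receptors are membrane proteins that are cut after binding a ligand on a neighbouring cell. ADAM proteases make the outer cut and the gamma-secretase complex the inner one, and the freed intracellular domain joins RBPJ and Mastermind proteins on DNA to switch on genes of the Hes and Hey families. In skeletal muscle the pathway is best known for keeping satellite cells quiescent, and the series asks what Notch2 does in the fibre itself during wasting. Wasting muscle is known for induction of the ubiquitin ligases Fbxo32 (atrogin-1) and Trim63 (MuRF1), which mark contractile and regulatory proteins for the proteasome.

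No gene passed the test between the genotypes in unloaded muscle: 0 of 13048 genes tested (0%) had an adjusted p under 0.05 in edgeR's quasi-likelihood test, and the smallest adjusted p was 0.305. At an unadjusted p under 0.05 there were 656 genes with higher values in Notch2-mKO muscle (5.03% of those tested) and 689 with lower values (5.28%). In 827 genes (6.34%) the 4 Notch2-mKO libraries lay all above or all below the 4 wild-type ones, 344 of them above (2.64%) and 483 below (3.7%). DESeq2, run on the same counts, called 5 genes: Tkt, Lrfn3 and Dap higher and Ddx3y and Dek lower. Most measured differences were small. The median absolute log2 fold change was 0.169, 95% of genes lay between -0.68 and 0.71, and for 10216 genes (78.3%) the 95% interval of the difference lay wholly within 1 log2 unit of 0. Because no gene was called, the differences below are given as values, the counts of list members at an unadjusted p under 0.05 or without overlap are to be read against these shares of all genes, and every fold change is log2 of Notch2-mKO over wild type unless stated.

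Depth was 34661368 to 53899363 estimated counts per library, and levels are given in counts per 1e6 of the scaled library total (CPM), of which 3 counts are 0.0607 to 0.0814. Fibre genes dominated all 8 libraries, as the tissue label calls for: the 25 fast fibre and contraction genes summed to 272055 to 348612 CPM in wild-type and 209725 to 375638 CPM in Notch2-mKO muscle. Library 1 of the Notch2-mKO group stood apart, with 27.8% of its counts in its 10 most abundant genes against 31.4 to 36.7% in the other 7. The genotypes did not separate along the largest axis of variation among the 8 libraries (24.1% of variance), at 1 end of which lay wild-type library 1 and Notch2-mKO library 4.

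Notch2 (chromosome 3, 98013538 to 98150367 in GRCm38, the build the submitters' processing notes call mm10) was weakly expressed in both genotypes. It measured 2.02, 1.34, 1.97 and 1.71 CPM in the wild-type libraries and 1.47, 1.38, 1.58 and 1.29 CPM in the Notch2-mKO libraries. The ranges overlap, since wild-type library 2 lay below 3 of the 4 Notch2-mKO libraries. The log2 fold change was -0.30 (SE 0.24, 95% interval -0.79 to 0.19, adjusted p = 0.696). Cre removes only the floxed part of the gene, in fibres, whereas the deposited count sums all exons in all cells of the muscle, so this level does not check the genotype labels. In bulk tissue, too, a difference in the number of cells of a type and a difference in RNA per cell cannot be told apart. Myl1, the gene that carries Cre in Notch2-mKO mice (chromosome 1, 66924295 to 66947932), measured 6887, 7821, 8978 and 13489.5 CPM in the wild-type libraries and 3818, 8704, 9889 and 8692 CPM in the Notch2-mKO libraries, a log2 fold change of -0.26 (SE 0.26, adjusted p = 0.767). Library 1 of the Notch2-mKO group was the lowest of the 8 and wild-type library 4 the highest.

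**Figure D1:**
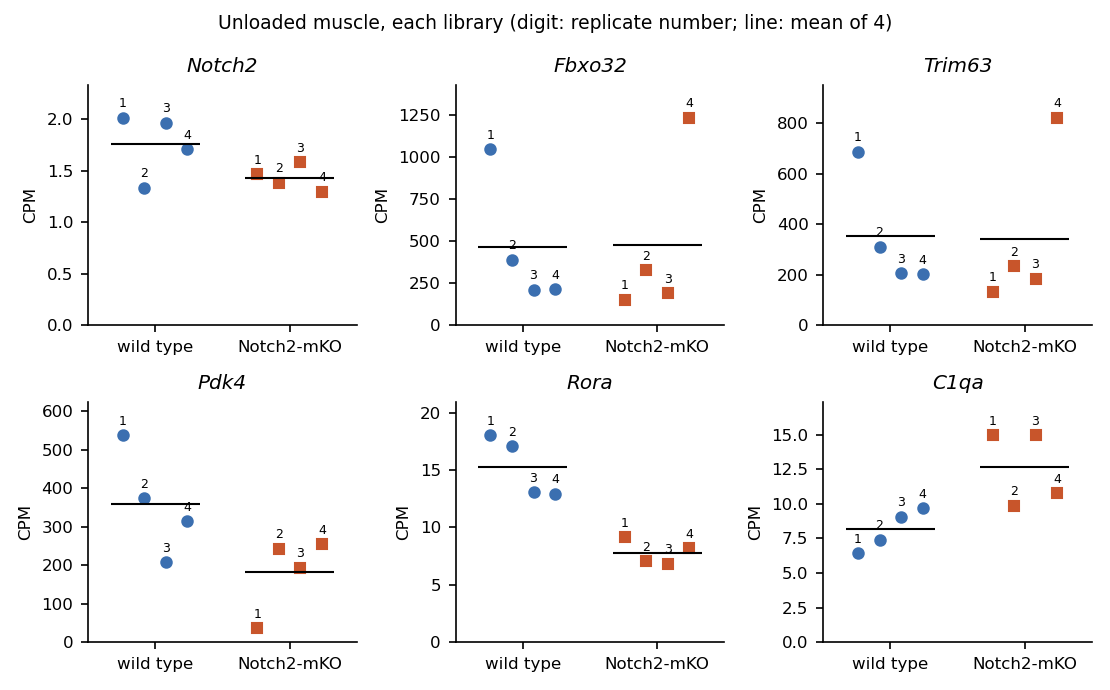
Level in CPM (y axis, from 0) of 6 genes in each of the 8 unloaded libraries, with wild type as blue circles and Notch2-mKO as orange squares, the replicate number above each point and a line at the mean of 4. Rora does not overlap between the genotypes, whereas Fbxo32 and Trim63 are high in 1 library of each genotype.

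Among the receptors and ligands of the pathway, 9 of 11 listed genes were expressed well enough to be tested, and 6 of the 9 had lower and 3 higher values in Notch2-mKO muscle. None was called, 1 with lower values had an unadjusted p under 0.05 (5.28% of all genes) and none separated the 2 sets of libraries. The median log2 fold change was -0.22, against 0.02 over all genes. That median was -0.01 without wild-type library 4 and -0.07 without Notch2-mKO library 2. Leaving out 1 other library gave -0.35 at the lowest. With each library's trend in GC content and transcript length removed (below) the median was -0.33. Notch1, the receptor paralogue with the smallest p, measured 3.46, 4.40, 4.63 and 4.56 CPM in the wild-type libraries and 3.23, 3.76, 2.55 and 2.83 CPM in the Notch2-mKO libraries (log2 fold change -0.46, SE 0.19, adjusted p = 0.443). Its 2 groups touch: Notch2-mKO library 2 lay above wild-type library 1. With the trend removed the Notch1 difference was -0.60, and the groups still overlapped. The ligand Jag1 measured 2.31, 2.05, 1.74 and 1.95 CPM in the wild-type libraries and 0.722, 2.09, 1.63 and 1.21 CPM in the Notch2-mKO libraries (-0.52, adjusted p = 0.545), with Notch2-mKO library 1 the lowest of the 8 and library 2 among the wild-type values. Dll4, the ligand of endothelial cells, was at -0.35 with an adjusted p of 0.636, and its lowest value was again in Notch2-mKO library 1 (2.23 CPM, the other 7 between 3.93 and 5.18).

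Scaled to the longest annotated transcript, Notch2 was the least abundant receptor in CPM per kilobase. Wild-type levels were 0.167 ± 0.0297 CPM per kilobase for Notch2 (SD, n = 4), 0.449 ± 0.0572 for Notch1, 0.863 ± 0.153 for Notch4 and 1.84 ± 0.533 for Notch3. Notch2-mKO levels kept that order, at 0.136 ± 0.0116, 0.326 ± 0.0552, 0.878 ± 0.192 and 1.95 ± 0.0938 CPM per kilobase. Notch3 is a receptor of pericytes and smooth muscle, and Notch4 is best known from endothelium. Jag2 was the most abundant ligand, at 4.11 ± 0.345 CPM per kilobase in wild-type and 4.19 ± 0.204 in Notch2-mKO muscle.

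Of 23 tested genes that process or modify Notch proteins, none was called. At an unadjusted p under 0.05 there was 1 in each direction (5.03% of all genes higher, 5.28% lower), or none higher and 2 lower with the trend removed. The median log2 fold change was -0.04, with a sign that turned when some libraries were left out (-0.08 to 0.04). Adam17, a protease of the outer cut, measured 8.95, 7.52, 9.04 and 9.28 CPM in the wild-type libraries and 7.45, 6.21, 6.62 and 5.20 CPM in the Notch2-mKO libraries (-0.45, adjusted p = 0.405). All 4 Notch2-mKO values lay under the 4 wild-type ones, by a narrow margin of 7.52 against 7.45 CPM, and with each library's trend in GC content and transcript length removed (below) the groups overlapped and the difference was -0.33. Rfng (radical fringe), which adds sugar to the receptor's extracellular repeats, measured 12.6, 12.7, 15.5 and 15.6 CPM in the wild-type libraries and 19.4, 18.4, 17.5 and 18.8 CPM in the Notch2-mKO libraries (0.39, adjusted p = 0.425), with no overlap and higher values in Notch2-mKO muscle, also with the trend removed (0.29). Psenen, a gamma-secretase subunit, did not overlap either (61.1, 66.1, 58.04 and 61.7 against 69.2, 70.8, 71.7 and 69.7 CPM, 0.19, adjusted p = 0.485), but did with the trend removed (0.10). Dtx3, of the Deltex family, had a log2 fold change of 0.22. The gamma-secretase gene Aph1a is listed at 0 in all 8 libraries and was not tested.

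The nuclear end of the pathway showed no common direction. Of 15 tested genes 6 had higher and 9 lower values, 1 and 3 of them at an unadjusted p under 0.05 (5.03% and 5.28% of all genes), with a median log2 fold change of -0.03. With the trend removed 1 was higher and 1 lower at that level. Hes1, a direct transcriptional target of Notch, measured 4.56, 4.11, 3.91 and 6.65 CPM in the wild-type libraries and 5.05, 8.85, 7.47 and 5.97 CPM in the Notch2-mKO libraries, higher on average in Notch2-mKO muscle although the ranges overlap (0.51, SE 0.22, adjusted p = 0.453). Once the trend was removed Hes1 was at 0.36 and no longer at an unadjusted p under 0.05, so the 1 higher gene then is another member. The co-activator Maml3 (-0.37, adjusted p = 0.457), the histone demethylase Kdm5a (-0.39, adjusted p = 0.445) and the co-repressor Ncor1 (-0.23, adjusted p = 0.469) had lower values. Ncor1 alone of these 3 did not overlap, at 107, 115, 107 and 112 against 89.1, 106, 88.5 and 92.1 CPM. Of further members, named after their values were seen, the DNA-binding factor Rbpj measured 31.1, 29.5, 28.7 and 26.6 CPM in the wild-type libraries and 26.9, 26.9, 23.7 and 30.7 CPM in the Notch2-mKO libraries, and the target Heyl 7.64, 5.46, 6.59 and 6.27 against 5.69, 6.13, 5.69 and 7.99 CPM, both with overlapping ranges. The target Hey2 was at a few counts per library, from 0 to 0.0849 CPM in wild-type and from 0.104 to 0.226 CPM in Notch2-mKO libraries, and no fold is given at that depth.

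**Figure D2:**
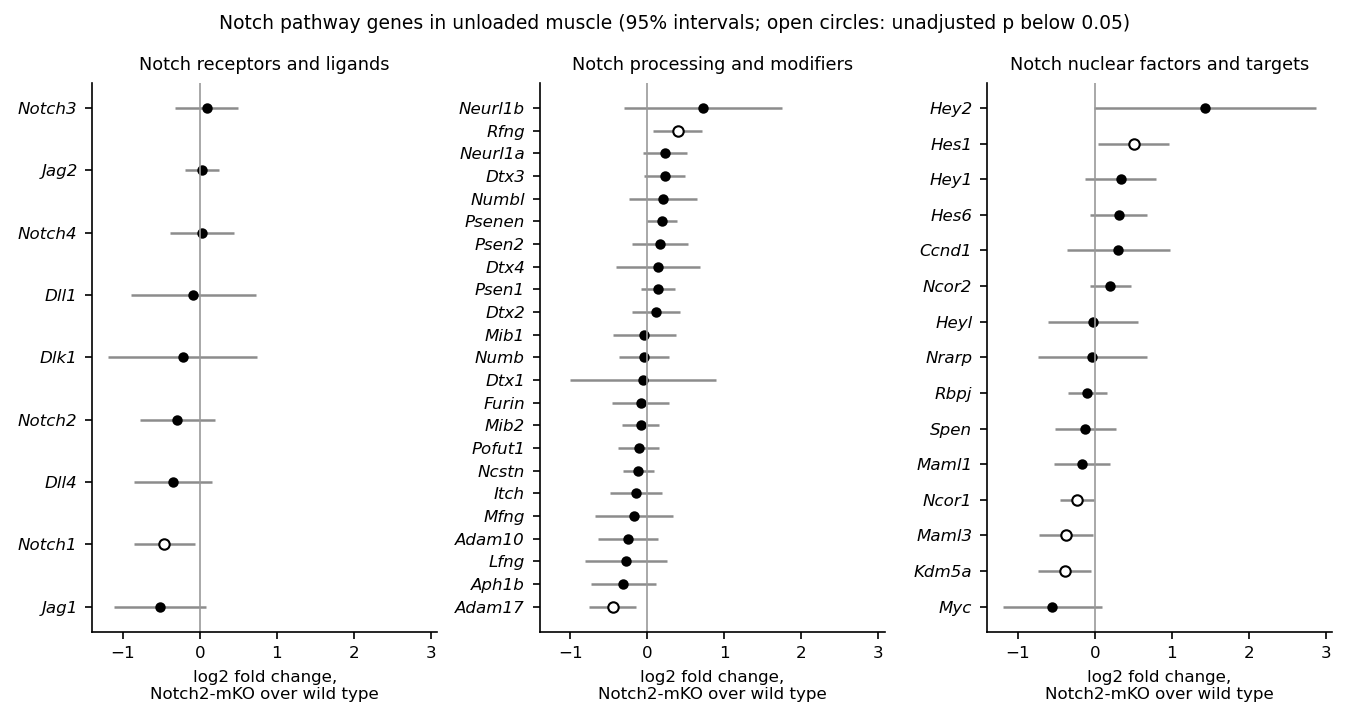
Log2 fold change of Notch2-mKO over wild type in unloaded muscle (x axis) with its 95% interval (bars) for the 47 tested Notch pathway genes, in 3 panels by role. The intervals of 40 of the 47 genes include 0, and the other 7 have an unadjusted p under 0.05.

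The 12 genes with the smallest p among those higher in Notch2-mKO muscle, chosen by a fixed rule from genes of at least 2 CPM whose libraries did not overlap, had log2 fold changes of 0.35 to 0.80 and adjusted p from 0.305 to 0.388. Tkt, the transketolase of the pentose phosphate pathway (chromosome 14, 30549131 to 30574724), came first. It measured 17.7, 14.5, 13.8 and 16.8 CPM in the wild-type libraries and 28.2, 19.3, 27.0 and 24.8 CPM in the Notch2-mKO libraries, so every Notch2-mKO library lay above the highest wild-type one (0.67, SE 0.13, adjusted p = 0.305). Lrfn3, a leucine-rich repeat adhesion protein (chromosome 7, 30355514 to 30362772), measured 5.20, 3.47, 3.96 and 4.83 CPM in the wild-type libraries and 6.90, 6.55, 7.16 and 7.77 CPM in the Notch2-mKO libraries (0.70, SE 0.15, adjusted p = 0.309). Dap, a negative regulator of autophagy, measured 3.35, 3.62, 3.50 and 4.75 CPM in the wild-type libraries and 6.09, 5.64, 6.05 and 5.64 CPM in the Notch2-mKO libraries (0.63, adjusted p = 0.309). In Dap and Lrfn3 the 4 Notch2-mKO libraries were closely spaced, whereas in Tkt library 2 lay well under the other 3.

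Slc35c2, a Golgi protein of the sugar-nucleotide transporter family known to aid fucosylation of Notch, measured 24.2, 23.9, 25.1 and 26.0 CPM in the wild-type libraries and 35.3, 32.4, 36.3 and 33.5 CPM in the Notch2-mKO libraries (0.47, adjusted p = 0.388). Naprt1, an enzyme of NAD synthesis from nicotinic acid, had a log2 fold change of 0.80, and Atp9a, an endosomal phospholipid transporter, of 0.65. For both, wild-type library 4 was well under the other wild-type libraries. Rhbdd2 (0.56), Ccdc102a (0.62), the ubiquitin ligase Mgrn1 (0.35) and S100a10, the annexin A2 partner (0.52), completed the set together with Hist2h2aa1 (0.46) and Hist2h2aa2 (0.42). The last 2 are near-identical copies of a histone H2A gene, and the split of reads between them is uncertain.

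The 12 genes chosen in the other direction had log2 fold changes of -1.07 to -0.38 and adjusted p from 0.359 to 0.388. Dek, a chromatin protein (chromosome 13, 47084767 to 47107530), measured 24.97, 22.1, 19.9 and 19.3 CPM in the wild-type libraries and 10.9, 11.3, 9.17 and 10.1 CPM in the Notch2-mKO libraries. The 2 groups are far apart, with the highest Notch2-mKO library at 11.3 CPM and the lowest wild-type one at 19.3 (-1.06, SE 0.24, adjusted p = 0.359). Ddx3y, a Y-linked RNA helicase, measured 63.4, 45.6, 39.4 and 39.3 CPM in the wild-type libraries and 25.3, 22.4, 20.4 and 21.4 CPM in the Notch2-mKO libraries (-1.07, SE 0.24, adjusted p = 0.359). Rora, a nuclear receptor of the circadian clock (chromosome 9, 68653404 to 69388246), measured 18.1, 17.1, 13.1 and 12.9 CPM in the wild-type libraries and 9.16, 7.05, 6.84 and 8.19 CPM in the Notch2-mKO libraries (-0.97, SE 0.26, adjusted p = 0.388). Thrb, the thyroid hormone receptor beta (chromosome 14, 17659225 to 18040097), measured 9.57, 10.004, 9.65 and 10.9 CPM in the wild-type libraries and 4.94, 6.47, 7.41 and 5.54 CPM in the Notch2-mKO libraries (-0.72, adjusted p = 0.388).

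Klf9, a zinc finger factor that responds to glucocorticoid and thyroid hormone, measured 158, 176, 129.7 and 131 CPM in the wild-type libraries and 65.4, 112, 86.7 and 112 CPM in the Notch2-mKO libraries (-0.66, adjusted p = 0.388), with the lowest value in Notch2-mKO library 1. The mRNA export adaptor Alyref had a log2 fold change of -0.94, the zinc finger gene Zfp932 of -0.89, the splicing regulator Ptbp2 of -0.67 and the mitochondrial folate carrier Slc25a32 of -0.62. Nufip2 (-0.55), the P-body helicase Ddx6 (-0.53) and the co-chaperone Dnajc7 (-0.38) had the smallest differences of the set. The rule chose these 24 genes for not overlapping in these libraries. With the trend removed, all 12 lower genes and 8 of the 12 higher ones still did not overlap, and Hist2h2aa1, Hist2h2aa2, Atp9a and Ccdc102a did.

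**Figure D3:**
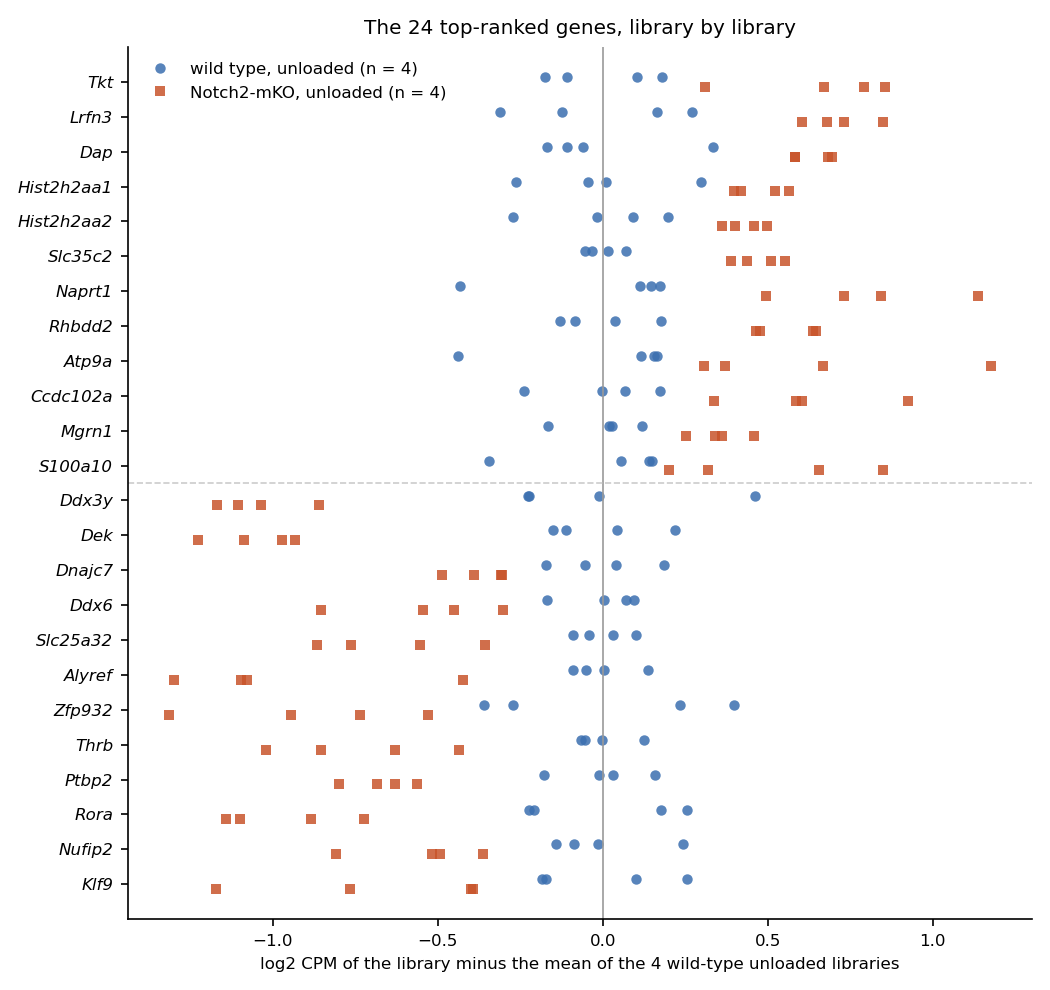
Log2 CPM of each unloaded library minus the mean of the 4 wild-type unloaded libraries (x axis) for the 24 genes chosen by the naming rule (y axis), with wild type as blue circles and Notch2-mKO as orange squares. The rule required that the 2 sets of points do not overlap, so the gap is how the genes were chosen.

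The control and diabetic libraries do not enter the unloaded contrast that chose these genes, although they shared its scaling, filter and estimate of dispersion. In control muscle 23 of the 24 had a difference of the opposite sign to that in unloaded muscle, and in diabetic muscle all 24 had the same sign. Dek shows the pattern: its log2 fold change was -1.06 in unloaded, 0.65 in control and -0.76 in diabetic muscle. Rora gave -0.97, 0.48 and -0.47 in the same order, and Tkt 0.67, -0.27 and 0.13. Some control differences were small, such as those of Naprt1 (-0.015) and Ccdc102a (-0.035). After trend removal, Naprt1 (0.080), Ccdc102a (0.100), Hist2h2aa2 (0.046) and Ddx3y (-0.014) turned in control muscle to their unloaded sign. Atp9a already had that sign (0.16, then 0.24), and the others of the 24 kept the opposite one. In diabetic muscle Rhbdd2 alone turned, to -0.006. Over all 827 genes without overlap the share with the same sign was 16.3% in control muscle (all genes 35.7%) and 89.4% in diabetic muscle (all genes 66.3%). These shares are over genes, which are not independent of each other. With the GC and length trend removed they were 23.2% (all genes 40.04%) and 83.3% (all genes 62.9%). Neither comparison called a gene by itself in edgeR's test: at an unadjusted p under 0.05 there were 695 genes in control (5.33%, of which 3.85 points higher and 1.48 lower in Notch2-mKO muscle) and 692 in diabetic muscle (5.3%, of which 2.35 points higher and 2.96 lower). With the trend removed the shares were 3.6% in control and 4.82% in diabetic muscle. DESeq2 called 1 gene higher and 2 lower in control muscle.

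The difference between unloaded and control muscle in the genotype effect was tested directly as an interaction. None of 13048 genes passed (0%) and 1875 (14.4%) had an unadjusted p under 0.05, 5.89% above and 8.48% below 0, or 8.58% in all with the trend removed. DESeq2 called 22 genes above 0 and 101 below. For Dek the interaction was -1.70 (adjusted p = 0.101), for Rora -1.45 (adjusted p = 0.122) and for Tkt 0.94 (adjusted p = 0.0943, the smallest of the 24). This test shares the unloaded libraries with the choice of genes. The count moved with the tool and with single libraries. Without control wild-type library 4, edgeR called 54 genes above 0 and 373 below, among them 19 of the 24. Without unloaded wild-type library 4 it called 8 and 4. That control library differed from its group in base composition, with an AT-rich minus GC-rich index (defined below) of -0.185 against -0.999 to -0.710 in the other 3, and the part of this in the result was not tested.

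Base composition moved with genotype in the unloaded libraries. Across 12974 genes with a GC value, the log2 fold change correlated with the GC content of the transcript (Spearman rho 0.390, Pearson r 0.323, as a description across genes of the same libraries). Genes higher at an unadjusted p under 0.05 had a median GC content of 55.4% and genes lower of 44.3%. The index, the mean log2 CPM of 917 genes under 42% GC minus that of 2757 genes over 56%, centred over the 24 libraries, was 0.435, 0.560, 0.400 and 0.378 in the wild-type libraries. It was 0.325, 0.0981, -0.0815 and -0.216 in the Notch2-mKO libraries, so all 4 lay under the wild-type ones. The means were 0.443 ± 0.0812 and 0.0314 ± 0.234 (SD, n = 4; exact two-sided permutation p = 0.0286, the smallest that 4 against 4 allows, and 0.343 after Benjamini-Hochberg adjustment over 12 library measures). In control muscle the order was the reverse, -0.696 ± 0.361 in wild type and -0.337 ± 0.283 in Notch2-mKO, and in diabetic muscle it was the same as in unloaded muscle, 0.404 ± 0.164 and 0.154 ± 0.158. With the trend removed from each library, the rho was 0.00667, still no gene was called, and 931 genes (7.14%) had an unadjusted p under 0.05. Of the 656 genes higher and 689 lower at that level, 302 and 382 kept it. In 569 genes (4.36%) the libraries then did not overlap, 253 higher (1.94%) and 316 lower (2.42%) in Notch2-mKO muscle.

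**Figure D4:**
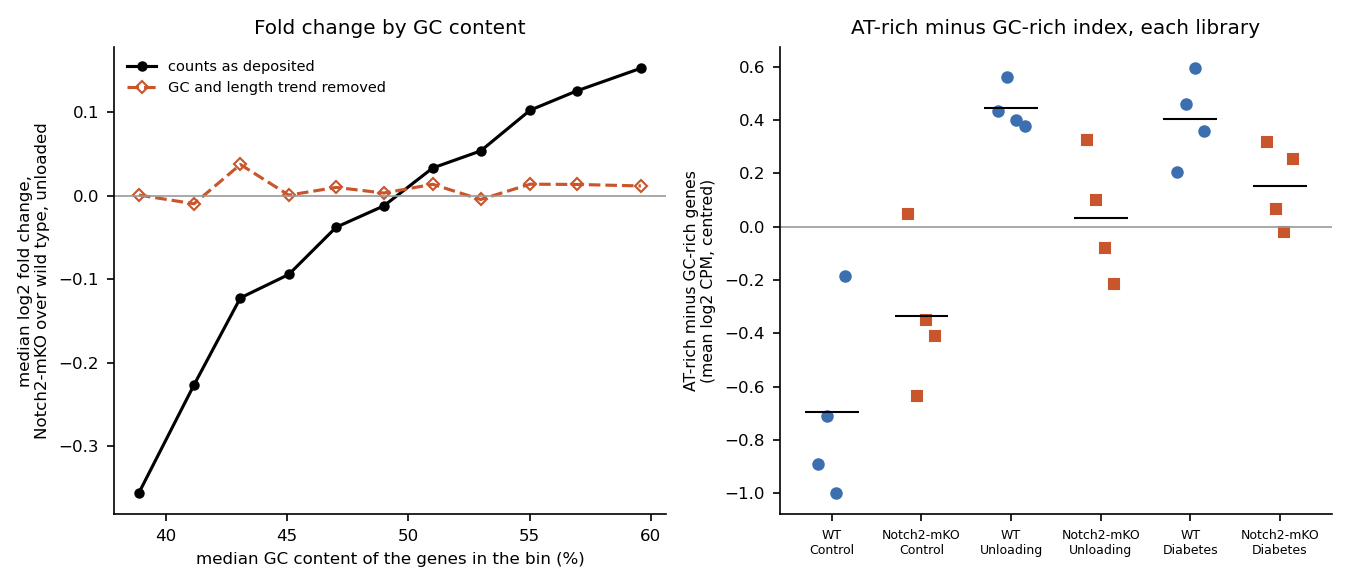
Left, median log2 fold change of Notch2-mKO over wild type in unloaded muscle (y axis) in bins of transcript GC content (x axis, percent), from the counts as deposited (black) and with each library's GC and length trend removed (orange, dashed). Right, AT-rich minus GC-rich index of each of the 24 libraries (points) with the group mean of 4 (lines): the unloaded Notch2-mKO libraries lie under the unloaded wild-type ones.

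Fbxo32 and Trim63, the ubiquitin ligases of wasting muscle, did not separate the genotypes. Fbxo32 measured 1047, 389.7, 211 and 213 CPM in the wild-type libraries and 150.5, 325, 190.1 and 1234.2 CPM in the Notch2-mKO libraries, and Trim63 688, 310.5, 205 and 203 CPM in the wild-type libraries and 133, 235, 183 and 822 CPM in the Notch2-mKO libraries. In both genes wild-type library 1 and Notch2-mKO library 4 were high and the other 6 libraries low. The log2 fold change was 0.03 for Fbxo32 (SE 0.54, adjusted p = 0.992) and -0.03 for Trim63 (SE 0.43, adjusted p = 0.990), and the 95% intervals, -1.09 to 1.15 and -0.93 to 0.86, include a 1.5-fold difference in either direction. Leaving out wild-type library 1 gave 0.81 and 0.52, and leaving out Notch2-mKO library 4 gave -1.05 and -0.93. Of the 21 ligases and atrophy genes tested, 2 had an unadjusted p under 0.05 with higher and 3 with lower values (5.03% and 5.28% of all genes), and the median was -0.01. None had such a p in either direction, and none was without overlap, with the trend removed. Nedd4, a HECT-type ligase, was the 1 member without overlap, at 392, 411, 410.5 and 400.4 against 308, 381, 342 and 347 CPM (-0.23, adjusted p = 0.425), and it overlapped with the trend removed (-0.17). Stub1, the chaperone-linked ligase (0.29), Trim32 (0.27) and Fbxo30 (-0.57), a ligase induced by denervation, had adjusted p from 0.439 to 0.470. Cblb, the remaining one of these 5, named after its values were seen, was at -0.37.

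Downstream of the ligases, 1 of 32 proteasome subunits had an unadjusted p under 0.05, with lower values (5.28% of all genes), and none with the trend removed. The median was 0.01, but without 1 library each it ranged from -0.08 (without Notch2-mKO library 1) to 0.24 (without wild-type library 1). Psmc6, an ATPase of the 19S cap, measured 109, 75.5, 60.5 and 61.3 CPM in the wild-type libraries and 69.2, 54.2, 46.8 and 55.8 CPM in the Notch2-mKO libraries (-0.44, adjusted p = 0.444). Psmb3 (0.34), Psmd13 (0.23) and the activator Psme4 (-0.18) overlapped between the genotypes, and Psme4 changed sign with the GC and length trend removed (0.14). Of 28 autophagy and lysosome genes none had an unadjusted p under 0.05, and the median was -0.01. With the trend removed 1 had such a p, with lower values, namely Gabarapl1 (-0.53). Gabarapl1, which encodes an autophagosome membrane protein, measured 87.6, 48.2, 36.4 and 31.2 CPM in the wild-type libraries and 25.4, 35.8, 36.5 and 52.6 CPM in the Notch2-mKO libraries (-0.44, adjusted p = 0.502), and wild-type library 1 was the highest. The lysosomal membrane gene Lamp1 did not overlap (615, 639, 606 and 583 against 705, 728, 649 and 696 CPM, 0.18, adjusted p = 0.508, and 0.19 without overlap with the trend removed), whereas the ranges of Gabarap (0.20) and Atg9a (0.14) did.

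In insulin, IGF and FOXO signalling, which regulates the ligases, 20 genes were tested, 1 higher and 3 lower at an unadjusted p under 0.05 (5.03% and 5.28% of all genes), and 1 and 2 without overlap (2.64% and 3.7%), with a median of -0.04. The counts at that p were 0 and 4 with the trend removed, and no member was then without overlap. Pik3r1, the regulatory subunit of PI3 kinase, measured 30.7, 30.6, 21.6 and 15.1 CPM in the wild-type libraries and 12.004, 13.9, 12.6 and 23.7 CPM in the Notch2-mKO libraries (-0.65, SE 0.28, adjusted p = 0.445), and Notch2-mKO library 4 lay among the wild-type values. The IGF1 receptor gene Igf1r (11.2, 13.2, 7.66 and 7.51 against 6.70, 6.50, 7.00 and 7.38 CPM, -0.52, adjusted p = 0.445) and the catalytic subunit gene Pik3ca (43.0, 35.3, 34.1 and 33.5 against 28.2, 28.6, 26.2 and 25.1 CPM, -0.43, adjusted p = 0.451) did not overlap, nor did Akt2, with higher values (0.16, named after its values were seen). All 3 overlapped with the trend removed, at -0.49, -0.15 and 0.06. Igfbp4, an IGF binding protein, had a log2 fold change of 0.27.

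Of 21 tested genes of the integrated stress and unfolded protein responses, 2 were higher and 1 lower at an unadjusted p under 0.05 (5.03% and 5.28% of all genes), or 2 and 0 with the trend removed. Creld2, a chaperone of the endoplasmic reticulum, measured 4.20, 4.77, 3.96 and 4.50 CPM in the wild-type libraries and 7.22, 4.99, 6.12 and 6.37 CPM in the Notch2-mKO libraries, without overlap (0.50, SE 0.14, adjusted p = 0.388), but overlapped with the trend removed (0.41). Manf, a secreted protein of the same response, was at 0.40 (adjusted p = 0.423), with its highest value in Notch2-mKO library 1. Hsp90b1 (-0.33), the reticulum's HSP90, had lower values, and the serine synthesis gene Psat1 was at 0.42.

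Among 18 genes that respond to glucocorticoids, 3 had lower values at an unadjusted p under 0.05 (5.28% of all genes) and none higher (5.03%). Of the 18 fold changes 6 were positive, against 53.8% over all genes (median -0.10). The 3 at that level were Klf9, Pik3r1 and Pdk4. Pdk4, the pyruvate dehydrogenase kinase that spares glucose, measured 538, 374, 208 and 314 CPM in the wild-type libraries and 36.5, 243, 193 and 254 CPM in the Notch2-mKO libraries (-0.98, SE 0.47, adjusted p = 0.481). Notch2-mKO library 1 was far under all others, and the remaining 3 overlapped with wild type. Glul, the glutamine synthetase gene, overlapped too (-0.53, adjusted p = 0.670). Without Notch2-mKO library 1 the median of the list was 0.01, and without Notch2-mKO library 4 it was -0.34.

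In 4 of 17 circadian clock genes the libraries did not overlap, all with lower values in Notch2-mKO muscle (3.7% of all genes), and 3 of the 4 had an unadjusted p under 0.05. Beside Rora these were Nr1d2 (REV-ERB beta), a repressor of the clock, at 59.4, 67.4, 65.6 and 65.3 against 52.1, 49.2, 53.3 and 46.04 CPM (-0.36, adjusted p = 0.423), Clock itself, at 20.7, 23.9, 17.4 and 19.2 against 14.9, 13.5, 10.1 and 14.7 CPM (-0.61, adjusted p = 0.430), and Tef, an activator driven by the clock (-0.16, named after its values were seen). Of these 4, Clock overlapped with the trend removed (-0.36) and the other 3 did not. Nr1d1 (REV-ERB alpha), the paralogue of Nr1d2, had higher values, at 115, 115, 132 and 112 against 122, 172, 135 and 293 CPM (0.61, adjusted p = 0.558), and its highest value was in Notch2-mKO library 4. The median of the 17 was -0.04, and it ranged from -0.18 without wild-type library 1 to 0.04 without Notch2-mKO library 1. The labels give no time of day for the collection of tissue.

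Of 50 nuclear genes of oxidative phosphorylation none had an unadjusted p under 0.05, and the median was 0.07. With the trend removed 1 had such a p, with lower values, namely Ndufa5 (-0.31). Ndufa5 (-0.29) and Ndufa1 (-0.25) of complex I, Uqcrq of complex III (0.25) and Atp5g1 of ATP synthase (0.25) had the smallest p of the list, with adjusted p from 0.485 to 0.561. Among 18 regulators of mitochondrial biogenesis 2 were lower at an unadjusted p under 0.05 (5.28% of all genes), or 1 with the trend removed. Gabpa, a factor that drives respiratory chain genes, measured 16.7, 17.6, 13.6 and 14.4 CPM in the wild-type libraries and 9.75, 10.5, 8.76 and 11.9 CPM in the Notch2-mKO libraries (-0.61, SE 0.18, adjusted p = 0.388). Tfam, the packaging factor of mitochondrial DNA (30.4, 32.9, 32.8 and 31.2 against 27.7, 27.6, 28.9 and 25.7 CPM, -0.21), and the co-activator Ppargc1a (12.7, 14.3, 14.7 and 15.1 against 10.9, 12.2, 12.1 and 9.14 CPM, -0.36) also did not overlap and had lower values, and Rxra had higher ones (0.20). The list as a whole had a median of 0.02, and with the trend removed Gabpa (-0.41), Tfam (-0.10), Ppargc1a (-0.30) and Rxra (0.09) overlapped between the genotypes.

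Of 31 genes of fatty acid uptake and oxidation, 1 was higher and 3 lower at an unadjusted p under 0.05 (5.03% and 5.28% of all genes; median -0.04), the 3 being Cd36, Acot2 and Pdk4. With the trend removed none was higher and 3 were lower at that level, Cd36 not among them. The libraries did not overlap in 2 members, both lower (3.7% of all genes), and with the trend removed also in 2, both lower (2.42%). The fatty acid transporter Cd36 measured 148, 161, 121 and 109 CPM in the wild-type libraries and 71.0, 122, 82.7 and 125 CPM in the Notch2-mKO libraries (-0.43, adjusted p = 0.445), and -0.04 with the trend removed. The thioesterase Acot2 (-0.73) and the lipid droplet gene Plin2 (0.35) had adjusted p of 0.453 and 0.445. Among 26 glycolysis and glycogen genes 18 had positive and 8 negative fold changes, and 2 had an unadjusted p under 0.05, both with lower values (5.28% of all genes) and without overlap (3.7%). Ppp1r3a, the muscle subunit that targets protein phosphatase 1 to glycogen, measured 259, 287, 233 and 257 CPM in the wild-type libraries and 144, 161, 165 and 153 CPM in the Notch2-mKO libraries (-0.73, SE 0.21, adjusted p = 0.388). Its transcript has 36.7% GC, and with the trend removed its difference was -0.23 and the groups overlapped. Hk2, the insulin-regulated hexokinase, measured 219, 154, 176 and 175 CPM in the wild-type libraries and 131, 126, 142 and 149 CPM in the Notch2-mKO libraries (-0.40, SE 0.15, adjusted p = 0.423) and remained without overlap, at -0.45. Ldhb (0.24) and the glycogen branching enzyme gene Gbe1 (-0.26) overlapped.

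Among 17 slow and oxidative fibre genes 1 was higher at an unadjusted p under 0.05 (5.03% of all genes), and none with the trend removed. Their median was 0.09, from -0.15 without wild-type library 4 to 0.40 without wild-type library 2, and 0.31 without both wild-type library 1 and Notch2-mKO library 4. Among 25 fast fibre and contraction genes 1 was lower (5.28% of all genes; median 0.05). Myl6b, a light chain of slow fibres, measured 6.72, 6.80, 6.61 and 6.67 against 8.44, 8.93, 8.17 and 7.26 CPM (0.29, adjusted p = 0.445), and overlapped with the trend removed (0.16). The fast oxidative myosin gene Myh2 (0.28) and the slow calsequestrin Casq2 (-0.30) overlapped. The stretch-responsive Z-disc gene Csrp3 was at -1.03 (adjusted p = 0.564), a value that rested on wild-type library 1 (147 CPM, the other 3 wild-type libraries 7.79 to 19.8), and it was 0.84 without that library. Trdn, the triadin gene, whose product anchors proteins of the calcium store to its release channel (chromosome 10, 33083483 to 33476709), measured 446, 633, 453 and 665 CPM in the wild-type libraries and 399, 369, 278 and 199 CPM in the Notch2-mKO libraries. All 4 Notch2-mKO libraries were under the wild-type ones (-0.82, SE 0.36, adjusted p = 0.453), also with the trend removed (-0.58). Its control difference was 0.88 and its interaction -1.70 (adjusted p = 0.163). Sln, the sarcolipin gene (-0.83), the calcium channel subunit Cacnb1 (0.22) and the junctional gene Jph1 (-0.17) overlapped.

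Matrix genes leaned towards higher values in Notch2-mKO muscle without separating the libraries. Of 30 extracellular matrix genes 24 had positive fold changes, against 53.8% of all genes, and 3 had an unadjusted p under 0.05, all positive (background 5.03%). The median was 0.19. It ranged from 0.01 without wild-type library 2 to 0.50 without wild-type library 4. Bgn, the proteoglycan biglycan, measured 17.9, 27.5, 28.3 and 35.0 CPM in the wild-type libraries and 36.5, 46.6, 43.0 and 27.8 CPM in the Notch2-mKO libraries (0.50, SE 0.15, adjusted p = 0.400). Loxl1, an enzyme that crosslinks elastin (0.44, adjusted p = 0.425), and Serpinh1, the collagen chaperone HSP47 (0.39, adjusted p = 0.476), overlapped between the groups, as did Timp1, an inhibitor of matrix proteases, at or under 1.13 CPM. In control muscle the list's median was -0.29, and the median interaction was 0.54. Of 12 tendon and cartilage genes 11 were positive, with a median of 0.37 (0.16 without wild-type library 1, 0.53 without wild-type library 3). The tendon transcription factor Scx (0.55), the cartilage protein genes Chad (0.61) and Cilp (0.41) and Ptx4 (1.36, under 1 CPM) had adjusted p from 0.464 to 0.569, and none separated the libraries.

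Markers of macrophages and other leukocytes gave the largest share of positive differences at an unadjusted p under 0.05 among the lists described: 6 of 22 tested genes, against 5.03% of all genes, with none in the other direction. Of the 22 fold changes 15 were positive and 7 negative, the lowest at -0.43. The median was 0.36, it was 0.31 with the trend removed, and it was 0.16 without wild-type library 2. C1qa, a chain of complement C1q made by tissue macrophages, measured 6.45, 7.42, 9.06 and 9.68 CPM in the wild-type libraries and 14.9, 9.87, 14.97 and 10.8 CPM in the Notch2-mKO libraries, with no overlap (0.63, SE 0.18, adjusted p = 0.388). With the trend removed it was at 0.48 and overlapped, so that no marker of the list then separated the libraries. C1qc (5.45, 5.12, 6.26 and 7.49 against 10.7, 7.13, 9.62 and 7.97 CPM, 0.55), C1qb (0.53) and the receptor gene Csf1r (7.15, 9.14, 10.7 and 13.0 against 13.9, 12.7, 15.4 and 11.6 CPM, 0.42) overlapped and had adjusted p from 0.388 to 0.423. Fcgr3 (0.57) and the macrophage lysosomal gene Cd68 (0.89), the remaining 2 and named after their values were seen, also overlapped, and Cd68 was highest in Notch2-mKO library 1 (5.51 CPM, the other 7 between 0.858 and 1.91). The summed level of the 22 markers was 91.8 to 158 CPM in wild-type and 129 to 167 CPM in Notch2-mKO libraries (exact permutation p = 0.171). The B and T cell markers Cd79a and Cd3e were at most 4.93 and 2 counts in any library. In control muscle the median of the list was -0.19.

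Of 24 endothelial genes 3 were lower at an unadjusted p under 0.05 (5.28% of all genes) and none higher (median -0.08), and 1 was lower with the trend removed. The libraries did not overlap in 2 members, both lower (3.7% of all genes), and with the trend removed also in 2, both lower (2.42%). Emcn, the endothelial sialomucin, measured 4.90, 4.95, 4.48 and 5.53 CPM in the wild-type libraries and 3.23, 3.94, 3.75 and 3.92 CPM in the Notch2-mKO libraries, without overlap (-0.42, adjusted p = 0.460), but overlapped with the trend removed (-0.27). The water channel gene Aqp1 (-0.27), the phosphatase Ptprb (-0.31) and the VEGF receptor gene Flt1 (-0.23) overlapped, with Notch2-mKO library 1 the lowest of the 8 in each. That library also had the lowest sum over the 24 markers, 504 CPM against 651 to 771 CPM in the other 7. Among 13 pericyte and smooth muscle genes 3 were higher and 1 lower at an unadjusted p under 0.05 (5.03% and 5.28% of all genes), or 1 and 1 with the trend removed, and their summed level was 6944 to 8581 CPM in wild-type and 8335 to 10486.9 CPM in Notch2-mKO muscle (exact permutation p = 0.0571, adjusted 0.343 over 12 library measures). This list holds Des, the desmin gene, which muscle fibres express too, so the sum does not measure pericytes and smooth muscle alone. Rgs5 and Tagln, given next, reached at most 40.9 and 14.9 CPM, a small part of that sum. The sum is therefore not read as a level of pericytes or smooth muscle. Rgs5, a pericyte regulator of G proteins, measured 28.0, 36.3, 40.9 and 35.8 CPM in the wild-type libraries and 21.8, 21.5, 18.2 and 17.7 CPM in the Notch2-mKO libraries, without overlap and lower in Notch2-mKO muscle (-0.83, SE 0.27, adjusted p = 0.405; -0.67 with the trend removed). The smooth muscle gene Tagln, at 11.6, 11.96, 10.9 and 11.4 against 14.9, 14.1, 13.3 and 13.8 CPM, was higher, also without overlap (0.29, adjusted p = 0.452; 0.22 with the trend removed), as were the overlapping Mcam (0.41) and Cnn1 (1.19, under 1 CPM).

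Markers of satellite cells, in which Notch signalling in muscle is best described, had a median of 0.02 over 12 genes (-0.16 without wild-type library 2), and their summed level was 164 to 190 CPM in wild-type and 171 to 203 CPM in Notch2-mKO muscle (exact permutation p = 0.257). Apart from Hes1, the members of smallest p were Sdc4 (-0.39), Cxcr4 (-0.47) and the myogenic factor Myf5 (-0.79, 0.488, 0.822, 0.293 and 0.760 against 0.338, 0.418, 0.361 and 0.243 CPM), with adjusted p from 0.508 to 0.662.

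**Figure D5:**
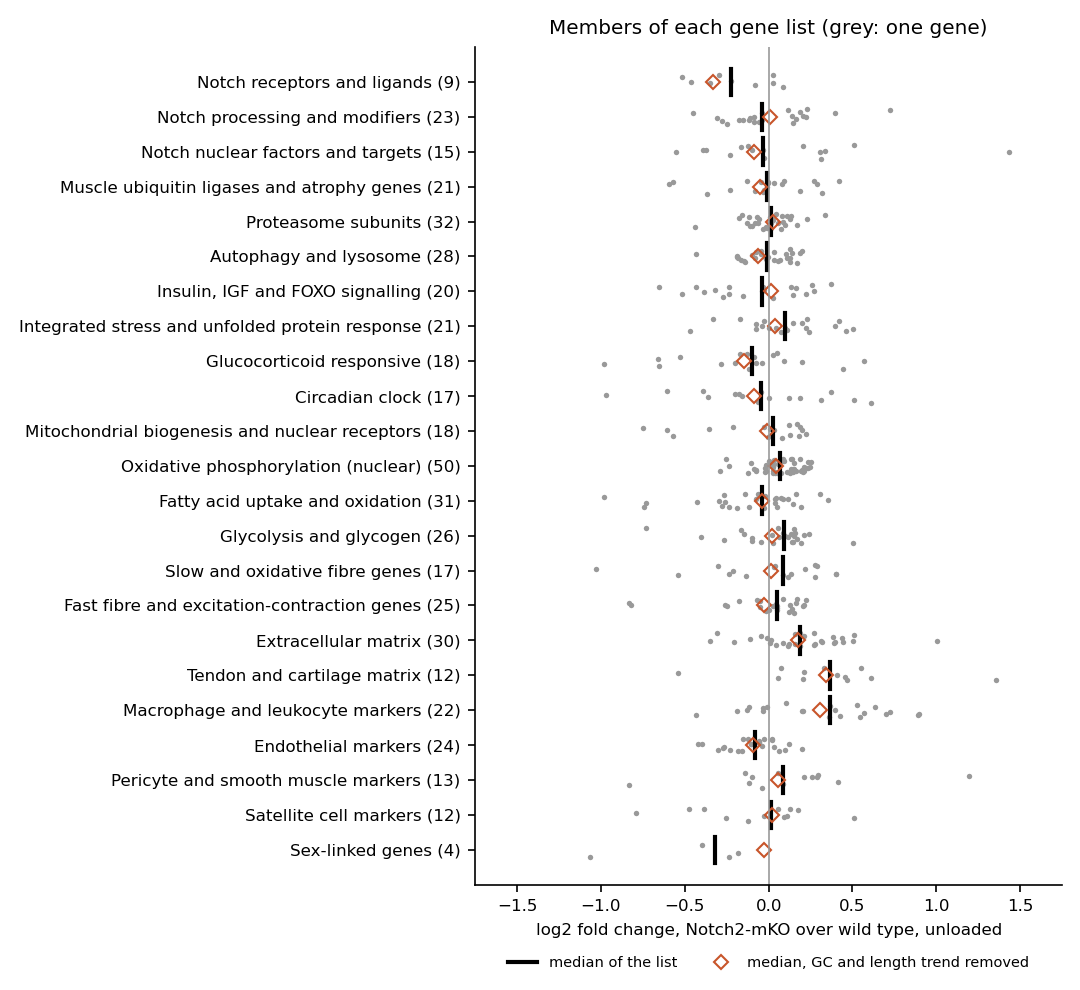
Log2 fold change of Notch2-mKO over wild type in unloaded muscle (x axis) of each tested member of the 23 gene lists described (grey points, number tested in brackets), with the median of the list (black bar) and the median after removal of each library's GC and length trend (orange diamond). Medians are between -0.32 and 0.37, and members of most lists lie on both sides of 0.

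The 11 other lists examined, from myostatin signalling to ribosomal proteins and red cell genes, held 195 tested genes, and their medians ran from -0.26 to 0.12. At an unadjusted p under 0.05 there were 5 higher and 5 lower genes (5.03% and 5.28% of all genes), named after their values were seen. The 5 higher were the lipogenic enzyme Fasn (1.08), the small heat shock protein Hspb8 (0.62), the pericyte and fibroblast marker Cd248 (0.58), Rpl3 (0.36) and the mTORC1 inhibitor Tsc1 (0.33). Fasn measured 28.5, 20.8, 21.1 and 17.1 CPM in the wild-type libraries and 65.4, 18.6, 78.0 and 23.3 CPM in the Notch2-mKO libraries, high in 2 Notch2-mKO libraries only, and Rpl3 was above the rest in Notch2-mKO library 1 alone (116 CPM, the other 7 between 49.1 and 57.9). The 5 lower were Klf6 (-0.63), Ier5 (-0.50), Rps29 (-0.46), the kinase gene Rps6kb1 (-0.40) and the co-chaperone Dnaja1 (-0.27). Dnaja1, Rpl19 (0.17) and Ly6a (0.22) were the 3 without overlap, and with the trend removed only Ly6a of these 3 still was. The 4 Y-linked genes were detected in all 8 libraries and all had lower values in Notch2-mKO muscle, with Ddx3y at -1.07, Uty at -0.40, Eif2s3y at -0.24 and Kdm5d at -0.18. Their transcripts have 35.7 to 43.8% GC, and with the trend removed the values were -0.55, -0.04, 0.11 and -0.01. Near the Cre-bearing locus, 108 genes within 10 Mb of Myl1 on chromosome 1 (56924295 to 76924295) were tested. None was called (smallest adjusted p 0.388), 16 had an unadjusted p under 0.05 (14.8%, against 10.3% of all genes), 12 did not overlap (11.1%, against 6.34%) and the median log2 fold change was -0.01.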

How the data were processed

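RNA-seq of gastrocnemius was read from 24 libraries, 4 for each of 2 genotypes under 3 conditions. The values deposited by the authors are estimated counts per gene for 36172 gene models, not normalized, and 26.4 to 34.6% of the values above 0 are whole within 0.001. Of the whole values up to 20 in a library, 84.2 to 88.8% are even. Whether a fragment was counted as 2 was not tested, so the counts may overstate depth in fragments. The genome build is mm10, per the submitters' processing notes. For the aligner and the counter, nothing is given in the sources used here. The 32 columns of the authors' normalized values were not used. The 8 control columns stand in 2 of the deposited tables with identical values and were used once.

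Counts were rounded and fitted with edgeR 4.0.16 (R 4.3.3) in 1 quasi-likelihood model of the 24 libraries with a mean for each of the 6 groups, after TMM scaling and edgeR's filter on low counts, which left 13048 genes. Genotype contrasts were tested within each condition and as the difference between unloaded and control muscle, with Benjamini-Hochberg adjustment at 0.05. Standard errors and 95% intervals are from the same model. CPM uses the scaled library size. Transcript GC content and length are from the reference annotation on GRCm38, with a value for 99.4% of the genes; the trend in both was removed per library with splines of 5 degrees of freedom as an alternative. Library measures were compared with exact two-sided permutation tests (4 against 4). Alternatives were other scaling, DESeq2 1.42.0, limma 3.58.1 voom, other filters, the 8 unloaded libraries alone, the replicate block, and leaving out each library. The fit was also run on simulated counts that held no GC or length trend between libraries, and no result here rests on that run.

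Genes were named by rule: Notch2, Myl1, Fbxo32 and Trim63; the 12 genes of smallest p in each direction whose mean reached 2 CPM and whose groups did not overlap; and the 4 members of smallest p in each list described. The libraries compared and the gene lists were chosen with earlier results of these data known. Libraries of 1 group correlated at r = 0.969 to 0.985 across genes on the log scale, and none repeated another within counting noise. The labels give no pairing of libraries between the 2 genotypes. Deviations of same-numbered libraries correlated at -0.184 to 0.160, which does not decide whether the numbers pair them.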

Additional observations from a re-analysis of the deposited data

Results flagged for a closer look

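In 306 groups of 4 libraries, over the genes named and 12 library measures, a single library stood outside the spread of the other 3 by Dixon's criterion 17 times, where chance alone would give about 1 in 20 groups. Notch2-mKO library 4 was high for Fbxo32 (1234.2 CPM, the other 3 between 150.5 and 325), Trim63 (822 CPM, the others between 133 and 235), the PI3 kinase subunit Pik3r1 (23.7 CPM, the others between 12.004 and 13.9) and the translation repressor Eif4ebp1 (243.9 CPM, the others between 72.6 and 88.6). Wild-type library 1 was high for the Z-disc gene Csrp3 (147 CPM, the others between 7.79 and 19.8), the proteasome activator Psme4 (441 CPM, the others between 264 and 291) and the syndecan gene Sdc4 (6.26 CPM, the others between 4.37 and 4.45).

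Notch2-mKO library 1 had the low share of counts in its 10 most abundant genes already given, 27.8% against 35.9 to 36.7%, and was high for Timp1 (1.13 CPM, the others between 0.313 and 0.452), Cd68 (5.51 CPM, the others between 1.17 and 1.38) and Rpl3 (116 CPM, the others between 49.1 and 57.6). Wild-type library 4 was low for Naprt1 (1.82 CPM, the others between 2.65 and 2.76), Atp9a (22.4 CPM, the others between 32.99 and 34.1) and Ndufa1 (62.9 CPM, the others between 73.2 and 74.9). Wild-type library 3 was high for the cartilage gene Chad (6.15 CPM) and low for Rps6kb1 (23.0 CPM), and wild-type library 2 was high for the Y-linked Kdm5d (9.20 CPM).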

How the results depend on the processing

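In unloaded muscle no gene was called under the main settings, and the smallest adjusted p ranged from 0.0147 to 0.677 over the alternatives. DESeq2 called 3 genes higher and 2 lower, the fit on the 8 unloaded libraries alone called 1 lower (Dek), and the counts without 1 library each ranged from 0 to 1 higher (Tkt, without Notch2-mKO library 2) and stayed at 0 lower. In control muscle DESeq2 called 1 higher and 2 lower, upper quartile scaling 1 lower, the filter at a mean of 2 CPM 1 lower, and leaving out 1 library 0 to 1 in each direction. In diabetic muscle leaving out 1 library gave 0 to 1 higher. For the difference between unloaded and control muscle DESeq2 called 22 above and 101 below 0, and leaving out 1 library gave 0 to 54 above and 0 to 373 below; the top of both ranges is without control wild-type library 4.

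Signs that turned were those of small or single-library differences. Fbxo32 was -0.0045 with upper quartile scaling, -0.17 with voom and -0.29 without both wild-type library 1 and Notch2-mKO library 4, and ranged from -1.05 to 0.81 when 1 library was left out. Over the same omissions Trim63 ranged from -0.93 to 0.52, Psme4 from -0.26 to 0.023, Gbe1 from -0.46 to 0.069, Csrp3 from -1.38 to 0.84 and Rpl3 from -0.0063 to 0.49. Csrp3 was 0.95 without both named libraries. With the GC and length trend removed Psme4 was 0.14 and Eif2s3y 0.11. For the difference between unloaded and control muscle, Fbxo32 ranged from -1.60 to 0.26 and Trim63 from -1.23 to 0.22. The cause was not tested.

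The replicate block, fitted although the labels give no pairing of the libraries, called no gene. The correlations of deviations were 0.044, 0.144, 0.160 and -0.184 for numbers 1 to 4. With the block 595 genes were higher and 673 lower at an unadjusted p under 0.05, and 377 and 491 with the trend removed as well. Under the block Fbxo32 was -0.33, and with the trend removed as well Fbxo32 was -0.18, Psme4 0.14 and Eif2s3y 0.11. With the trend removed alone, 418 genes were higher and 513 lower at that level. Of the values of single genes under the alternatives, 3272 kept their direction and side of the threshold, 48 moved past it in the same direction and 24 turned. Depth was 34661368 counts or more, and with 4 libraries a group the median 95% interval of a gene reached 0.384 log2 units either side, as an unadjusted interval.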

Other observations

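A pair of unloaded libraries, 1 of each genotype, shared high and low genes. Among 9392 genes of at least 2 CPM, wild-type library 1 and Notch2-mKO library 4 were the 2 highest of the 8 libraries for 1368 genes (14.6%), against 76 to 632 genes for each of the other 27 pairs. They were both the lowest for 756 genes, against 777 for wild-type library 1 with Notch2-mKO library 1 and at most 625 for any other pair. The pattern was noticed in these data, and the genes below were chosen after their values were seen.

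Beside Fbxo32 and Trim63, these 2 libraries were the highest for Sqstm1, which encodes the autophagy receptor p62, at 1871, 1041, 817 and 869.7 CPM in the wild-type libraries and 677, 1006, 826 and 2043 CPM in the Notch2-mKO libraries. Eif4ebp1, which represses cap-dependent translation, measured 282, 115, 78.9 and 70.1 CPM in the wild-type libraries and 88.6, 72.6, 73.0 and 244 CPM in the Notch2-mKO libraries. The stress response factor Atf4 measured 245, 148, 127 and 127 CPM in the wild-type libraries and 103, 118, 136 and 272 CPM in the Notch2-mKO libraries, and the glucocorticoid-induced Fkbp5 155, 99.5, 83.8 and 45.5 CPM in the wild-type libraries and 30.3, 77.1, 61.5 and 193 CPM in the Notch2-mKO libraries. Both libraries were the lowest for the fast fibre water channel gene Aqp4, at 4.48, 21.0, 20.0 and 25.7 CPM in the wild-type libraries and 14.5, 15.2, 21.1 and 2.14 CPM in the Notch2-mKO libraries, and for the potassium channel subunit gene Kcng4, at 4.86, 18.4, 19.6 and 35.4 CPM in the wild-type libraries and 23.3, 30.5, 30.8 and 8.03 CPM in the Notch2-mKO libraries. Mybph, a myosin binding protein gene, measured 18.9, 46.8, 58.3 and 161 CPM in the wild-type libraries and 35.0, 54.01, 105 and 17.0 CPM in the Notch2-mKO libraries. No test was made of these values, since the libraries were singled out by them.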
